A study of Mus musculus with 10 samples.

Results

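The 36 genes described here drive, brake or report on cell division, and they were measured in eosinophils sorted from the lungs of mice with allergic airway inflammation. They were taken by gene symbol from the deposited table of 35725 genes, and all 36 were found there, each in 1 row. By role they are 14 genes of mitosis, 7 of DNA replication, 7 cyclins and cyclin-dependent kinases (CDKs) of the G1 phase, 4 CDK inhibitors and 4 genes of the RB and E2F proteins. RNA came from 5 P2ry14-null and 5 wild-type (WT, strain C57BL/6J) libraries, all from male mice. P2ry14 encodes a receptor for UDP-sugars, and the comparison asks how its loss bears on the transcripts of lung eosinophils. Sensitization was oropharyngeal and the same in both groups, with ovalbumin (50 µg) and an Aspergillus oryzae protease (20 µg) given on a pair of occasions 1 week apart. After 7 days they inhaled a 1% ovalbumin aerosol, and eosinophils were sorted 16 h later. The labels give no age and no strain background for the P2ry14-null mice, and they do not tie libraries to separate mice, so p-values measure the spread between these libraries, which may be technical.

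Eosinophils arise in the bone marrow from dividing progenitors and leave it as cells that no longer divide. Cells enter the cycle when D-type cyclins with CDK4 or CDK6, and then cyclin E with CDK2, phosphorylate the RB family proteins, which otherwise hold E2F factors and their target genes in check. CDK inhibitors oppose these kinases. Genes of DNA replication are typical E2F targets, while genes of mitosis are switched on later, through CHR promoter elements and CCAAT boxes, and are held off in resting cells by the DREAM complex of an RB family protein and E2F4.

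Libraries held between 67.2 M and 185 M reads (M, 1000000). Eosinophil identity was checked on 12 markers: Siglecf stood between 1189 and 1352 counts per 1000000 reads (CPM) and the eotaxin receptor Ccr3 between 1244 and 1603. Of 12 markers of immature granulocytes, Elane had 0 reads in all 10 libraries, which allows up to 0.0447 CPM in the shallowest, and Ms4a3, Mpo, Ctsg, Fcnb, Camp and Prtn3 stayed at or below 0.122 CPM. Others of that list were present in every library, with Kit at 8.61 to 13.1 CPM, Ngp at 3.42 to 9.93 CPM and Ltf at 2.31 to 4.01 CPM. The summed level of that list, 657 to 1947 CPM in P2ry14-null and 701 to 917 CPM in WT, came mostly from Cd34 and Chil3. Its top value is that of P2ry14-null library 2, with 1520 CPM of Chil3, the only 1 of the 12 markers that peaked there. The 8 neutrophil markers summed to 3720 to 5397 CPM in P2ry14-null and 3707 to 4645 CPM in WT, of which Retnlg made 3408 to 5104 CPM. S100a9 held 96.9 to 167 CPM, Cxcr2 107 to 158 CPM and Csf3r 10.6 to 30.5 CPM. Ly6g, S100a8, Mmp8 and Stfa2l1 reached at most 2.18, 4.65, 2.05 and 0.816 CPM. P2ry14 itself held 190 to 229 CPM in WT and 21.8 to 24.2 CPM in P2ry14-null, at a log2 fold change of -3.19 ± 0.06 (SE; edgeR adjusted p = 3.74e-12). P2ry14-null library 2 stood apart in markers of other cells, which is taken up with the mitosis genes.

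Summed CDK inhibitors stood above the summed genes of division in every library, through Cdkn1a, Cdkn1b and Cdkn2d. The fourth, Cdkn2c, lay below 5 of the 21 mitosis and replication genes. Levels of different genes are compared as RPKM, reads per 1000 exon bases and 1000000 reads. In sorted bulk RNA, fewer cells of a type and less RNA per cell cannot be told apart. The 4 inhibitors summed to 241 ± 18.9 RPKM in WT and 226 ± 17.2 RPKM in P2ry14-null (SD, n = 5 each). Summed over the 14 mitosis genes the level was 8.69 ± 0.72 RPKM in WT and 8.28 ± 0.71 in P2ry14-null, and over the 7 replication genes 30.9 ± 2.65 and 29.1 ± 0.77. The ratio of summed inhibitors to summed mitosis and replication genes was 6.54, 6.05, 6.28, 5.74 and 5.91 in WT libraries 1 to 5 and 6.66, 5.53, 6.6, 6.0 and 5.5 in P2ry14-null libraries 1 to 5. All 10 values lie above 5, the ranges of the groups overlap, and their means are 6.1 ± 0.31 in WT and 6.06 ± 0.56 in P2ry14-null. As this ratio is taken over chosen genes it is given with no test. It rests in large part on Cdkn1a, without which it was 2.35 in WT and 2.5 in P2ry14-null, still above 1 in each library (lowest 1.89). By median over genes the distance is wider, with 45.8 RPKM for inhibitors against 0.112 RPKM for mitosis and 2.87 RPKM for replication, where the median of all tested genes was 3.26 RPKM.

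**Figure D1:**
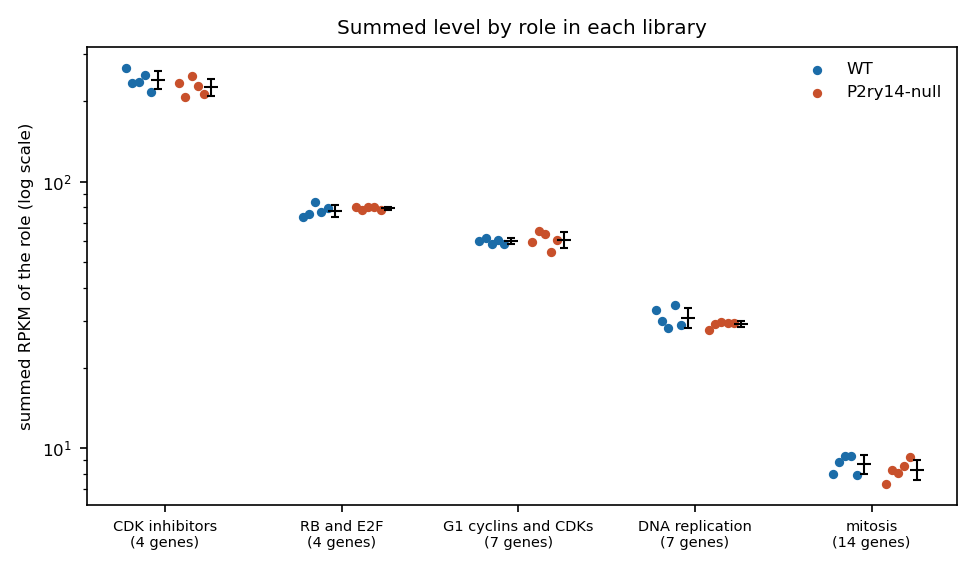
Summed level of the members of each role (RPKM, log axis) in every library, WT in blue and P2ry14-null in orange-red, with mean and SD of 5 libraries as black bars. The summed CDK inhibitors lie between 207 and 267 RPKM and the summed mitosis genes between 7.31 and 9.37 RPKM, and the genotypes overlap in all 5 roles.

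No cell cycle gene of this set passed the test between genotypes. The edgeR quasi-likelihood test called 0 of 35 tested members, where it called 6 of 15586 genes overall (0.0385%), 2 of them higher (0.0128%) and 4 lower (0.0257%) in P2ry14-null. At an unadjusted p under 0.05 it listed 1 member, the RB family gene Rbl2, against 644 of 15586 genes (4.13%), and DESeq2 called 0 of the 36 members after adjustment and 1 without it. The edgeR adjusted p was 0.999 for each of the 35. Of the 36 members, 0 had WT and P2ry14-null libraries that did not overlap in CPM, against 101 of 15586 tested genes (0.648%). The median log2 fold change (P2ry14-null minus WT) of the 35 was -0.014, and of all tested genes 0.0025. A missed threshold does not show that levels were alike, so 95% intervals of the log2 fold change are given below. They lay wholly between -0.5 and 0.5 for 28 of the 35 and between -1 and 1 for 33, with Ccnb1 and Ube2c, both on few reads, as the 2 that reached further. Bub1 was too low to be tested.

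**Figure D2:**
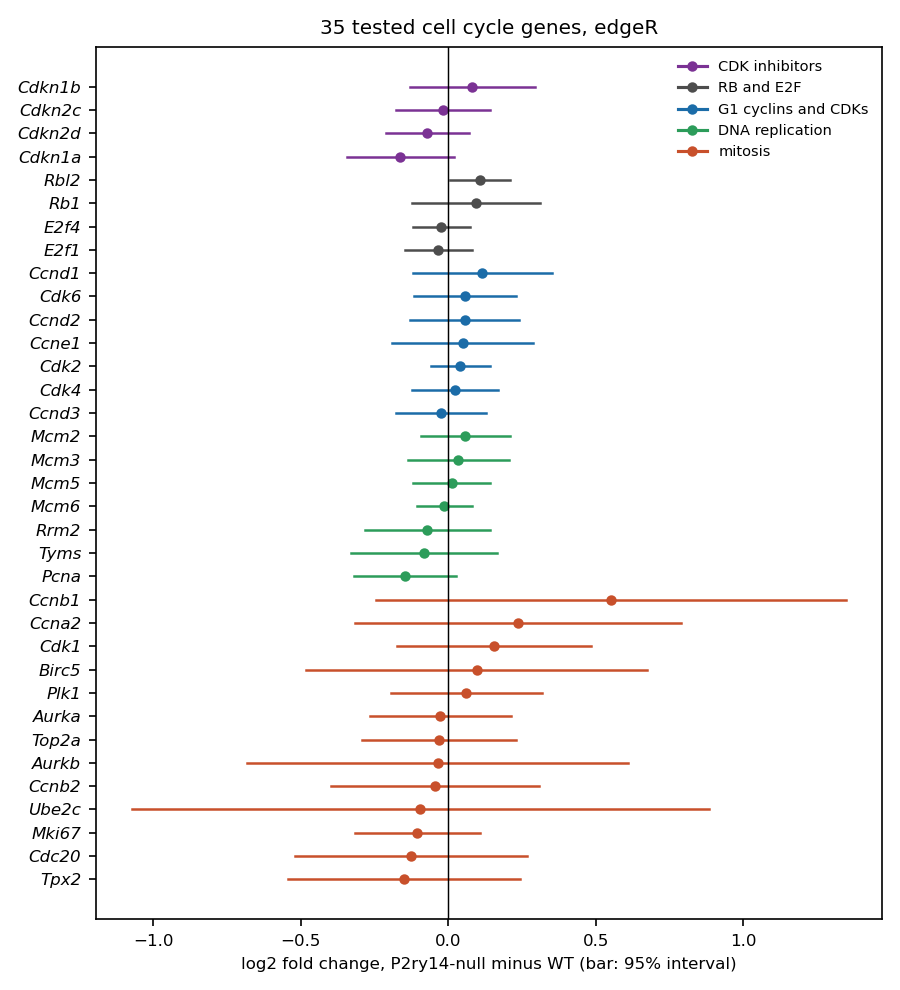
Log2 fold change of the 35 tested cell cycle genes, P2ry14-null minus WT, as points with 95% intervals from edgeR, coloured by role. Points lie between -0.16 and 0.55, and the 7 intervals that reach beyond -0.5 or 0.5 all belong to mitosis genes.

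Among G1 cyclins and CDKs, Ccnd3 and Cdk6 stood well above their closest relatives. Ccnd3, which encodes the D-type cyclin prominent in blood cells, held 26.0, 26.9, 22.9, 24.7 and 25.4 RPKM in WT libraries 1 to 5 and 24.2, 27.7, 27.2, 21.6 and 23.3 RPKM in P2ry14-null libraries 1 to 5. Ccnd2 held 2.25, 1.74, 2.0, 2.44 and 2.0 RPKM in WT and 2.06, 2.31, 2.39, 2.06 and 2.01 RPKM in P2ry14-null. Ccnd1, the D-type cyclin of many epithelial and mesenchymal cells, held 0.431, 0.445, 0.427, 0.359 and 0.383 RPKM in WT and 0.425, 0.546, 0.42, 0.414 and 0.406 RPKM in P2ry14-null. The 3 D-type cyclins thus kept 1 order in all 10 libraries with ranges that do not meet, Ccnd3 above Ccnd2 above Ccnd1, and each overlapped between genotypes. Their log2 fold changes were -0.02 ± 0.07 (95% interval -0.18 to 0.13), 0.05 ± 0.09 (-0.13 to 0.24) and 0.11 ± 0.11 (SE; -0.12 to 0.35). Ccnd1 was highest in P2ry14-null library 2, and without that library its log2 fold change was 0.025.

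Cdk6, a catalytic partner of D-type cyclins, held 15.7, 17.2, 18.4, 18.3 and 15.3 RPKM in WT and 17.2, 19.4, 18.3, 14.6 and 18.8 RPKM in P2ry14-null. Its relative Cdk4 held 3.66, 3.34, 3.05, 3.49 and 3.49 RPKM in WT and 3.3, 3.86, 3.27, 3.29 and 3.57 RPKM in P2ry14-null. Cdk6 was therefore above Cdk4 in every library, and the highest Cdk4 value, 3.86 RPKM, is far under the lowest of Cdk6, 14.6 RPKM. Cdk2, the partner of cyclins E and A, lay between them, with 10.9, 11, 10.6, 10.2 and 10.9 RPKM in WT and 11.1, 10.1, 11, 11.7 and 11.2 RPKM in P2ry14-null. Its cyclin Ccne1 was low, with 1.01, 0.947, 0.862, 1.0 and 0.969 RPKM in WT and 0.857, 1.12, 0.924, 0.849 and 1.19 RPKM in P2ry14-null. Both genotypes overlap for each of these 4 genes. Log2 fold changes were 0.06 ± 0.08 (95% interval -0.12 to 0.23) for Cdk6, 0.02 ± 0.07 (-0.12 to 0.17) for Cdk4, 0.04 ± 0.05 (-0.06 to 0.14) for Cdk2 and 0.05 ± 0.11 (-0.19 to 0.29) for Ccne1. The order of all 7 genes was Ccnd3, Cdk6, Cdk2, Cdk4, Ccnd2, Ccne1 and Ccnd1, and no neighbours in it overlapped over the 10 libraries. With the length of the longest transcript in place of the union of exons, Cdk6 (17.7 to 23.6 RPKM) and Cdk2 (19.3 to 22.3 RPKM) overlapped, and the other neighbours again did not.

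Cdkn1a, the p53-responsive inhibitor p21, was the highest of the 36 genes. It held 164, 144, 137, 169 and 130 RPKM in WT libraries 1 to 5 and 137, 119, 150, 134 and 122 RPKM in P2ry14-null libraries 1 to 5, above 98.0% of the tested genes with a length. WT libraries 1 and 4 are the highest and P2ry14-null library 2 the lowest, and the groups overlap. Means were 149 ± 17 RPKM in WT and 133 ± 12.6 RPKM in P2ry14-null (SD, n = 5 each), and the log2 fold change was -0.16 ± 0.08 (SE; 95% interval -0.34 to 0.02). Cdkn1a (gene ID 12575) lies on chromosome 17 of mm10 at 29090979 to 29100722 on the plus strand.

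Cdkn1b, the inhibitor p27 that marks resting cells, held 53.8, 46.0, 60.2, 38.9 and 47.9 RPKM in WT and 53.8, 47.1, 55.7, 54.7 and 49.8 RPKM in P2ry14-null. WT spans a wider range here, with both the highest library (WT 3) and the lowest (WT 4), and the log2 fold change was 0.08 ± 0.10 (SE; 95% interval -0.13 to 0.29). Cdkn2d, an INK4 inhibitor of CDK4 and CDK6, held 48.1, 42.7, 37.7, 42.3 and 38.3 RPKM in WT and 41.3, 39.3, 42.2, 37.2 and 39.0 RPKM in P2ry14-null, with a log2 fold change of -0.07 ± 0.07 (95% interval -0.21 to 0.07). Cdkn1b exceeded Cdkn2d in 9 of 10 libraries, but their ranges overlap. The second INK4 gene, Cdkn2c, was the low one of the 4, with 1.63, 1.43, 1.49, 1.42 and 1.45 RPKM in WT and 1.56, 1.35, 1.44, 1.45 and 1.52 RPKM in P2ry14-null. Cdkn2d was 27.7 times as high as Cdkn2c by mean RPKM, and the log2 fold change of Cdkn2c was -0.02 ± 0.07 (95% interval -0.18 to 0.14). Cdkn1a, Cdkn1b and Cdkn2d each exceeded all 21 mitosis and replication genes in all 10 libraries. Cdkn2c exceeded 16 of the 21 in all libraries, the exceptions being Mki67, Mcm3, Mcm5, Mcm6 and Pcna. With longest transcript lengths it exceeded 15, as Mcm2 then stood above it by mean.

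**Figure D3:**
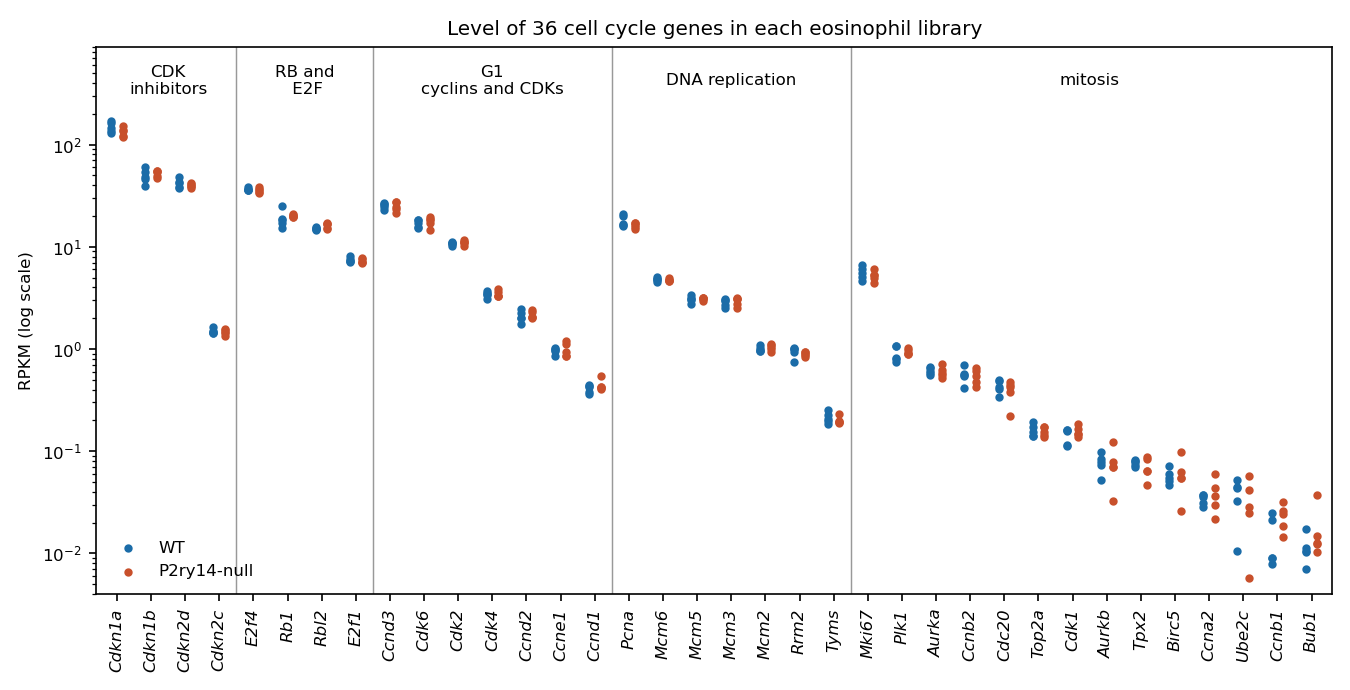
RPKM (log axis) of each of the 36 cell cycle genes in every library, ordered by role and mean level, with 5 WT libraries in blue and 5 P2ry14-null libraries in orange-red. Cdkn1a, Cdkn1b and Cdkn2d lie above every mitosis and replication gene shown, and Mki67 lies above the other 13 mitosis genes.

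All 4 RB and E2F genes lay above the median tested gene. E2f4, the E2F factor bound by RB family proteins in resting cells, led with 36.3, 36.4, 36.1, 35.6 and 38.0 RPKM in WT and 35.7, 36.9, 38.5, 34.6 and 33.8 RPKM in P2ry14-null. E2f1, an activator of S phase genes, held 7.13, 7.64, 7.26, 7.22 and 8.07 RPKM in WT and 7.54, 7.14, 7.02, 7.84 and 6.91 RPKM in P2ry14-null. E2f4 was the higher of the 2 in every library, and both genotypes overlap for each, with log2 fold changes of -0.02 ± 0.04 (SE; 95% interval -0.12 to 0.07) and -0.03 ± 0.05 (-0.15 to 0.08). Rb1, the retinoblastoma protein gene, held 15.4, 16.9, 24.8, 18.3 and 18.6 RPKM in WT and 20.2, 19.4, 19.4, 20.5 and 20.8 RPKM in P2ry14-null. The P2ry14-null libraries lie close together between WT library 3, the highest, and the other 4 WT libraries. Without WT library 3 the log2 fold change of Rb1 was 0.21, against 0.09 ± 0.10 (95% interval -0.12 to 0.31) with all libraries, and it did not pass in either fit.

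Rbl2, which encodes the RB family protein p130 of resting cells, held 14.8, 14.6, 15.4, 15.5 and 14.8 RPKM in WT libraries and 16.8, 15, 15.4, 17.2 and 16.5 RPKM in P2ry14-null libraries. P2ry14-null libraries 1, 4 and 5 lie above all WT libraries and libraries 2 and 3 within their range. The log2 fold change was 0.11 ± 0.05 (SE; 95% interval 0.01 to 0.21; edgeR adjusted p = 0.999). This is the member with an unadjusted p under 0.05 named above, a share of 1 in 35 where 4.13% of all tested genes met that mark. In the annotation 21.0% of the exon bases of Rbl2 are shared with Aktip and Gm45464 on the opposite strand, and since the strand setting of the counting is not given in the sources used here, reads of these genes cannot be told apart there.

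Genes of DNA replication varied little between libraries and were at low to middle levels, except for Pcna, which lay above 81.4% of the tested genes with a length. Pcna, the sliding clamp that also serves DNA repair, led with 19.9, 16.8, 16.1, 21.1 and 16.2 RPKM in WT and 14.8, 15.8, 17.2, 17.2 and 16.2 RPKM in P2ry14-null. WT libraries 1 and 4 are the highest, as for Cdkn1a, and the other 8 overlap, with a log2 fold change of -0.15 ± 0.08 (SE; 95% interval -0.32 to 0.03). Without WT library 4 it was -0.079. The helicase subunit gene Mcm6 was the steadiest of the 36, with 4.84, 5.0, 4.86, 4.55 and 4.78 RPKM in WT and 4.77, 4.92, 4.67, 4.67 and 4.76 RPKM in P2ry14-null. Its highest library stood 1.1 times above its lowest, and its log2 fold change was -0.01 ± 0.04 (95% interval -0.11 to 0.08). Mcm5 had 3.08, 3.15, 2.77, 3.41 and 2.98 RPKM in WT and 3.12, 3.09, 3.19, 2.92 and 3.18 RPKM in P2ry14-null. Mcm3 ranged from 2.49 to 3.18 RPKM over the 10 libraries and overlapped with Mcm5.

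Lower still were Mcm2 and the nucleotide synthesis genes. Mcm2 held 0.947, 0.978, 0.948, 1.1 and 1.02 RPKM in WT and 0.933, 1.09, 1.0, 1.04 and 1.11 RPKM in P2ry14-null. Rrm2, the ribonucleotide reductase subunit made in S phase, held 1.03, 0.746, 0.927, 1.0 and 0.998 RPKM in WT and 0.941, 0.929, 0.878, 0.835 and 0.898 RPKM in P2ry14-null. Tyms, the thymidylate synthase gene, was the lowest of the 7 with 0.195, 0.25, 0.207, 0.186 and 0.225 RPKM in WT and 0.192, 0.232, 0.197, 0.188 and 0.192 RPKM in P2ry14-null. Each of these genes overlaps between genotypes, and the largest log2 fold change of the 3 in size was -0.08 ± 0.11 for Tyms (SE; 95% interval -0.33 to 0.16). For all 7 replication genes the highest library was less than 1.5 times the lowest. The 5 below the median tested gene were Mcm5, Mcm3, Mcm2, Rrm2 and Tyms.

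Mitosis genes had the lowest median of the roles, 0.112 RPKM, with Mki67 far above the others. Plk1, Aurka and Ccnb2 still lay above Ccnd1 and Tyms by mean RPKM. Mki67, the gene of the Ki-67 protein that coats mitotic chromosomes and is widely used to mark dividing cells, held 4.66, 5.5, 6.57, 6.12 and 5.04 RPKM in WT and 4.44, 4.91, 5.24, 5.26 and 6.08 RPKM in P2ry14-null. The groups overlap, and the log2 fold change was -0.11 ± 0.10 (SE; 95% interval -0.32 to 0.11). Top2a, the topoisomerase of dividing cells, held 0.156, 0.172, 0.14, 0.192 and 0.14 RPKM in WT and 0.138, 0.173, 0.142, 0.171 and 0.154 RPKM in P2ry14-null. Mki67 was thus 28.3 to 47.1 times as high as Top2a within a library, or 16.4 to 27.3 times with longest transcript lengths, and it exceeded each of the other 13 mitosis members in all 10 libraries. It made up 58.6% to 70.3% of the summed mitosis level. Per library it rested on 3014 to 11989 reads, and its exons (gene ID 17345; chromosome 7, 135689788 to 135716409, minus strand) share 0 bases with those of another gene in the annotation. Of 46 further mitosis genes, Bub3, Incenp, Smc4, Cks2 and Pttg1 exceeded it by mean RPKM. With longest transcript lengths Cenpa also did, at 6.45 RPKM against 5.38 RPKM for Mki67.

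The other mitosis members fell in a graded order below 1.0 RPKM by mean. Plk1, the polo-like kinase, held 0.815, 1.07, 0.752, 1.07 and 0.803 RPKM in WT and 0.89, 0.974, 0.896, 0.922 and 1.02 RPKM in P2ry14-null. Aurka, a spindle pole kinase, held 0.666, 0.652, 0.584, 0.607 and 0.552 RPKM in WT and 0.621, 0.556, 0.521, 0.586 and 0.719 RPKM in P2ry14-null. Plk1 exceeded Aurka in all 10 libraries (in 8 with longest transcript lengths), and both genotypes overlap for each gene. Ccnb2, a B-type cyclin, and Cdc20, an activator of the anaphase-promoting complex, ranged over all libraries from 0.411 to 0.697 and from 0.222 to 0.494 RPKM. Cdk1, the kinase of mitotic entry, held 0.156, 0.161, 0.112, 0.114 and 0.162 RPKM in WT and 0.165, 0.185, 0.149, 0.146 and 0.136 RPKM in P2ry14-null, with a log2 fold change of 0.15 ± 0.15 (SE; 95% interval -0.18 to 0.48). Cdk1 was above Top2a in 5 of the 10 libraries, but in 0 with longest transcript lengths, so their order is not settled.

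A group of 7 mitosis genes, Aurkb, Tpx2, Birc5, Ccna2, Ube2c, Ccnb1 and Bub1, stayed below 0.1 RPKM by mean. With longest transcript lengths 6 did, and Aurkb stood at 0.115 RPKM. Over the 10 libraries Aurkb, the kinase of the chromosomal passenger complex, ranged from 0.0323 to 0.123 RPKM and its partner Birc5 from 0.0261 to 0.0973 RPKM. Tpx2, a spindle assembly factor, ranged from 0.0465 to 0.088 RPKM and Ccna2, the A-type cyclin of dividing cells, from 0.0218 to 0.0604 RPKM. Both genotypes overlap for these 4 genes. Ccnb1, the main B-type cyclin, held 0.00904, 0.00794, 0.0248, 0.0212 and 0.00911 RPKM in WT and 0.0316, 0.0185, 0.0145, 0.0258 and 0.0243 RPKM in P2ry14-null. That is 4 to 19 reads per library, and the groups overlap through WT libraries 3 and 4. Its log2 fold change was 0.55 ± 0.37 (SE; 95% interval -0.25 to 1.35), and 0.86 without WT library 3. Ube2c, the ubiquitin-conjugating enzyme of mitotic exit, held 0.044, 0.0451, 0.0106, 0.0517 and 0.0325 RPKM in WT and 0.0057, 0.0574, 0.0287, 0.0418 and 0.0247 RPKM in P2ry14-null, from 1 to 23 reads. Both its lowest and its highest library are P2ry14-null, with a log2 fold change of -0.10 ± 0.45 (SE; 95% interval -1.07 to 0.88). At this depth a change of either gene by a factor of 2 lies within the interval in at least 1 direction. Bub1, a spindle checkpoint kinase, held 0.0105, 0.0173, 0.0114, 0.0103 and 0.00706 RPKM in WT and 0.0102, 0.0372, 0.0125, 0.0125 and 0.0147 RPKM in P2ry14-null, from 3 to 25 reads. The single high value is that of P2ry14-null library 2.

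P2ry14-null library 2 was the highest of the 10 libraries for 6 of the 14 mitosis genes (42.9%), Bub1, Ube2c, Birc5, Aurkb, Ccna2 and Cdk1. It was also the highest for 4 of the 7 G1 members (57.1%), Ccnd1, Ccnd3, Cdk4 and Cdk6, and for the replication gene Mcm3. In CPM, library 2 against the mean of the other 4 P2ry14-null libraries was 2.99-fold for Bub1, 2.27-fold for Ube2c, 1.97-fold for Birc5, 1.96-fold for Aurkb and 1.83-fold for Ccna2. It was only 1.31-fold for Ccnd1, 1.15-fold for Ccnd3 and Cdk4 and 1.13-fold for Cdk6, and 0 of the 7 G1 members exceeded 1.5-fold. No CDK inhibitor and no RB or E2F gene was highest there, and the 4 inhibitors lay between 0.876 and 0.984 of the other P2ry14-null libraries. Over all 36 members it was the highest library for 11 (30.6%), and over all tested genes for 1812 of 15586 (11.6%). Of 4446 tested genes under 1 CPM, 20.4% were more than 1.5-fold higher in library 2 than in the mean of the other 4, and of 10 mitosis and replication members under 1 CPM, 5 were (50%). Of the 46 other mitosis genes, taken at any level, 5 were (10.9%), with a median ratio of 1.01, against 7.77% of all tested genes. All 5 of these (Nek2, Kif2c, Nuf2, Cdc25c and Nusap1) had means under 1 CPM. Others of the list under 1 CPM, such as Cenpf, Kif4, Ttk and Ndc80, lay in library 2 within the range of the other P2ry14-null libraries. As the list also holds genes above 1 CPM, its 10.9% and the 50% are not shares at a like level.

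Markers of some other cells, but not of all, were high in the same library. All 8 class II and dendritic cell markers peaked there, with a summed level of 430.5 CPM against 75.4 to 122 CPM in the other P2ry14-null libraries and 106 to 144 CPM in WT. All 7 lung epithelial markers also did, at 72.7 CPM against 4.9 to 18.3 CPM and 12.6 to 24.3 CPM in WT, as did all 7 B and plasma cell markers, at 56.5 CPM against 17.2 to 25.8 CPM and 20.2 to 34.3 CPM in WT. Of the T and NK cell markers 9 of 11 peaked there (15.8 CPM against 6.55 to 8.65 CPM and 7.53 to 9.41 CPM in WT), and of the alveolar macrophage markers 7 of 10 (671 CPM against 467 to 497 CPM and 425 to 584 CPM in WT, mostly Car4). None of these 43 markers was at 0 in all libraries. Summed markers of 4 other lists lay nearer to the other P2ry14-null libraries, at 0.819 times their mean for neutrophils, 0.85 for mast cells and basophils, 1.03 for endothelium and fibroblasts and 1.14 for erythroid cells. The neutrophil sum was mostly Retnlg and the endothelial sum mostly Pecam1. Even so, 4 of the 8 neutrophil markers and 3 of the 7 endothelial and fibroblast markers peaked in library 2. Csf3r held 30.5 CPM there against 10.6 to 14.7 CPM in the other P2ry14-null libraries, and S100a8 4.65 against 0.951 to 1.66 CPM. Kdr, Cdh5 and Cldn5 held 0.428, 0.778 and 0.519 CPM against at most 0.14, 0.148 and 0.0855 CPM. The mast cell and basophil sum did not overlap between genotypes, at 58.5 to 81.6 CPM in P2ry14-null and 88.9 to 103 CPM in WT, and 0 of its 6 tested markers passed edgeR. That sum was mostly Hdc and Gata2, and each of these genes overlapped between genotypes. Cpa3, Mcpt8, Mcpt4, Fcer1a and Ms4a2 stayed at or below 0.778 CPM. Of the 6 tested mast cell and basophil markers, 0 had a log2 fold change above 0. Among single tested genes 0.648% did not overlap, which is not a like measure for a sum over 7 markers. The sum of the 12 eosinophil markers was 0.975 times that of the other P2ry14-null libraries. The part of these other cells in the mitosis values was not tested. Without library 2 the log2 fold changes of Birc5 and Ccna2 were -0.15 and 0.024, against 0.10 ± 0.27 and 0.24 ± 0.26 (SE) with it, and those of Aurkb and Ube2c were -0.32 and -0.39, against -0.04 ± 0.30 and -0.10 ± 0.45. The count of called members without it was again 0 by edgeR.

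**Figure D4:**
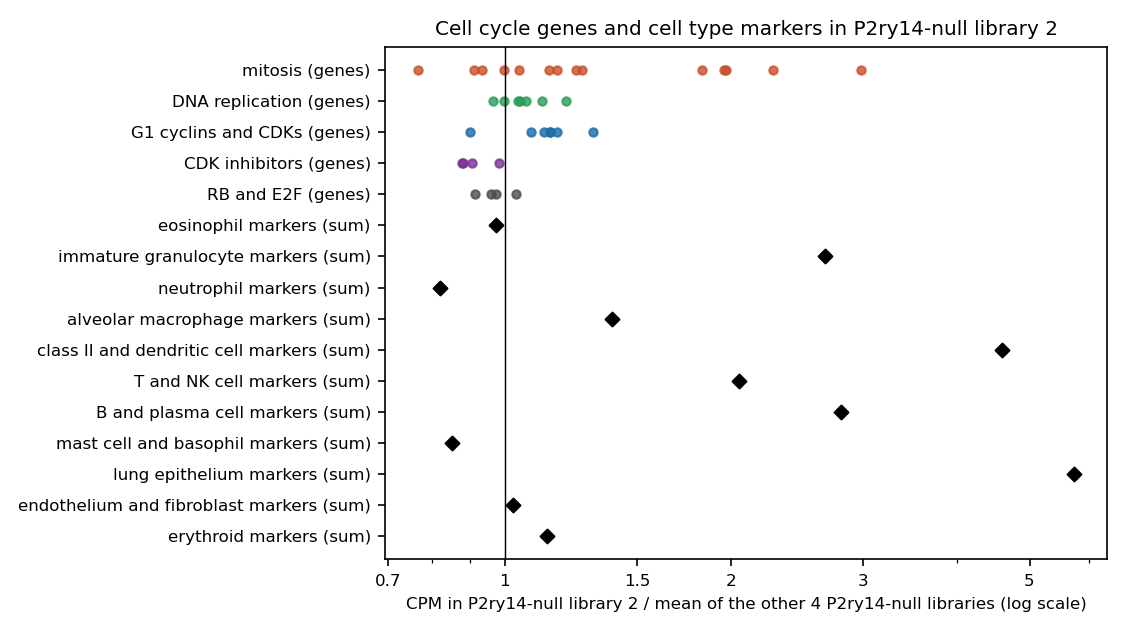
CPM in P2ry14-null library 2 divided by the mean of the other 4 P2ry14-null libraries (log axis), as coloured points for each cell cycle gene by role and as black diamonds for the summed markers of each cell type. In the mitosis row 5 genes lie above 1.5, while the 4 CDK inhibitors lie between 0.876 and 0.984 and class II markers at 4.6.

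Promoters of the members were searched for short motifs known from mitotic and replication genes, and the counts by role are given with no test. RefSeq promoters of GRCm38.p6 (the assembly of mm10) were matched for 29 members by symbol, and the 250 bases before each listed start were searched on both strands. CCAAT was found in 10 of 11 mitosis genes and 6 of 7 replication genes, against 33.8% of all 32851 windows of that length, and in 4 of the 11 other members. TTTGAA or TTCGAA, the letters of the CHR element, were found in 6 of the 11 mitosis genes (Mki67, Top2a, Cdk1, Ccnb2, Cdc20 and Ube2c), in Mcm2, in Rbl2 and in 0 CDK inhibitors, against 17.1% of all windows. Letters of an E2F site (TTTCGCGC, TTTGGCGC, TTTCCCGC or TTTGCCGC) were found in Mcm6, Mcm5, Cdk1 and Cdk2, against 1.86% of all windows. These are matches of letters and do not show that a factor binds. Below are 6 windows, 5′ to 3′ on the strand of the gene, with matches in capitals: Mki67 (chr7:135716380-135716629, minus strand), Top2a (chr11:99024190-99024439, minus) and Cdk1 (chr10:69352913-69353162, minus) as mitosis genes of unlike level with CHR and CCAAT letters, Mcm6 (chr1:128359706-128359955, minus) for E2F letters, and Cdkn1b (chr6:134920151-134920400, plus) and the first listed start of Cdkn1a (chr17:29090729-29090978, plus) as the inhibitors of the highest level.
Mki67: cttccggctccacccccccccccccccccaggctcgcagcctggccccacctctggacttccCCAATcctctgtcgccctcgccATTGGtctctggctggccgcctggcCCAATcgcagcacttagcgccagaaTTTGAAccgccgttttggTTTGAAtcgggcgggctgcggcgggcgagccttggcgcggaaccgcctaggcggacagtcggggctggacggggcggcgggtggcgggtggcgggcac
Top2a: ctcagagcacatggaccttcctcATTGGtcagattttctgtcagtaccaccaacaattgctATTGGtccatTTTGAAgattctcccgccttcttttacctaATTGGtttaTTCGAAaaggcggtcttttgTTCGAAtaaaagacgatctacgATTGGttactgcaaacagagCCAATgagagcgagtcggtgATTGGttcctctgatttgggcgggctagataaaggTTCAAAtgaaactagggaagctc
Cdk1: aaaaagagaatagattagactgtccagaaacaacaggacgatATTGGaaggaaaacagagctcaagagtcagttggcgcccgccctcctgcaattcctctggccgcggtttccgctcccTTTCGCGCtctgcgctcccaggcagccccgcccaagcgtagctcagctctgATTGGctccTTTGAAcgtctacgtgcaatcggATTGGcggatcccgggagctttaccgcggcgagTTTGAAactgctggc
Mcm6: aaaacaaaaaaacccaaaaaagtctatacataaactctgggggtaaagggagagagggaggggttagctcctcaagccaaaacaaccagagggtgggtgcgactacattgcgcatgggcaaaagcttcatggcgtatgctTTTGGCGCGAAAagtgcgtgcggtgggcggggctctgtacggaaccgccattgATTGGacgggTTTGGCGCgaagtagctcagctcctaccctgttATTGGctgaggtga
Cdkn1b: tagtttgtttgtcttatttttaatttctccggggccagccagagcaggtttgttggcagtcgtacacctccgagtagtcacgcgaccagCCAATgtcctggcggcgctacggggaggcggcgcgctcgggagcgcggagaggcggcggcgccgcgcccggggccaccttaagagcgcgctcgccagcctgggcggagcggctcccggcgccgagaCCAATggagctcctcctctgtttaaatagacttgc
Cdkn1a: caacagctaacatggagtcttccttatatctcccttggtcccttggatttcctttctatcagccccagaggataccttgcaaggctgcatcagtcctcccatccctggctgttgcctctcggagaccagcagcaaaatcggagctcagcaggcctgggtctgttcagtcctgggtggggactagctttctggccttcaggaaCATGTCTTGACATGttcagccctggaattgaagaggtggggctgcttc

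Mki67 and Top2a carried both kinds of letters in these windows, Mki67 with 2 CHR and 3 CCAAT matches and Top2a with 4 and 6, although their levels differed as described. Both Cdkn1a windows had 0 CHR, 0 E2F and 0 CCAAT matches. The capitals in the Cdkn1a window mark CATG, 6 bases of any kind and CATG, the core letters of a p53 site, 48 bases before the start. This motif was searched after the sequence had been seen. Cdkn1a was the only one of the 29 members to hold it, and 0.49% of all windows did.

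Beyond the 36, lists of 143 further genes of the cell cycle and its control were read in the same way. Of these, 136 were tested and 0 passed edgeR, with 0 at an unadjusted p under 0.05 and 0 called by DESeq2. Over all 15586 tested genes 6 passed edgeR (0.0385%) and 644 had an unadjusted p under 0.05 (4.13%). Their log2 fold changes lay above 0 for 7975 and below 0 for 7611. Of 46 other mitosis genes (41 tested, 21 above and 20 below a log2 fold change of 0), 33 were under 1 RPKM, with a median of 0.21 RPKM. Cks2, a CDK-binding subunit, and Smc4, a condensin subunit, were the highest of them at 48.0 and 16.3 RPKM. Unlike the 21 mitosis and replication members, Cks2 lay above the mean of Cdkn2d (40.8 RPKM). Its range, 37.5 to 57.6 RPKM, overlapped that of Cdkn1b, 38.9 to 60.2 RPKM. Of 31 other replication genes (12 above and 19 below 0), the highest were Slbp, the histone mRNA binding protein, at 8.61 RPKM and the helicase subunit Mcm4 at 7.24 RPKM. A list of 16 other cyclins, CDKs and CDK activators, which also holds kinases and cyclins of transcription such as Cdk9 and Ccnt1, had 8 above and 8 below 0. Its highest genes were Ccng2, a cyclin linked to cell cycle arrest, and Ccni, at 75.4 and 65.1 RPKM.

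The highest single genes of all lists were genes that slow proliferation, but not every gene of that list was high. Btg2 and Btg1, anti-proliferative genes of the BTG family, stood at 1204 and 371 RPKM, Gadd45a, a stress-inducible gene that inhibits CDK1, at 438 RPKM, and Mxd1, an antagonist of MYC, at 319 RPKM. Each was above 99% of the tested genes with a length. Btg2 was at 1181 ± 55.2 RPKM in WT and 1226 ± 140 RPKM in P2ry14-null (SD, n = 5 each), a log2 fold change of 0.05 ± 0.08 (SE). Gadd45a was at 462 ± 70.1 RPKM in WT and 414 ± 59.6 in P2ry14-null, a log2 fold change of -0.16 ± 0.11. Of the 20 genes in that list 15 exceeded the median tested gene, and 8 had a log2 fold change above 0 and 12 below (median -0.04). In the same list 3 were under 1 RPKM, Cdkn1c at 0.553, Btg3 at 0.369 and Cdkn3 at 0.266 RPKM. Cdkn2a and Cdkn2b stood at 4.25 and 15.9 RPKM. Among 15 RB, E2F and DREAM genes (14 tested, 11 above 0 and 3 below, median 0.05) the E2F partner Tfdp1 was highest at 26.5 RPKM, followed by the DREAM kinase Dyrk1a at 14.8 RPKM. Of 15 genes of p53 and its targets (7 above and 7 below 0), Mdm2, the p53 inhibitor, and Ccng1 led at 65.0 and 44.7 RPKM.

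For 13 of the 36 members some exon bases are shared with a gene on the opposite strand, from 0.547% of Cdk2 to 23.4% of Ccnd1, and 22 members share none. The processed pseudogene copies Ccnb1-ps and Tyms-ps are listed with 0 reads in all libraries. How reads that match several places were treated is not given in the sources used here.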

How the data were processed

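RNA of sorted lung eosinophils was measured in 5 P2ry14-null and 5 WT libraries, prepared with an Illumina TruSeq RNA kit per the labels' protocols. The values are counts of reads per gene, unnormalized, as the authors deposited them. STAR 2.5, Subread, featureCounts 1.5.0-p1, DESeq2 and the build mm10 are named in the submitters' processing notes. Those sources do not give the annotation release, the strand setting or the treatment of multiply matching reads.

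From the counts, edgeR 4.0.16 in R 4.3.3 was fitted to all 10 libraries with genotype as the only term, TMM factors and the default filter on low counts, which left 15586 genes. P-values of its quasi-likelihood test were corrected over all of these (Benjamini-Hochberg, threshold 0.05). DESeq2 1.42.0, other scalings and filters, a replicate block and leaving out each library were the alternatives. Standard errors are the log2 fold change over the root of the F statistic, with 95% intervals from the t quantile. CPM use TMM-scaled library sizes, and RPKM the union of GENCODE vM21 exons, found for 14187 (91.0%) of the tested genes. The fit was tested on simulated data. A count of 0 allows up to 3 reads, for counting error only. Pairs of libraries within a group differed by a mean chi-square of 23.1 or more per gene, beyond counting error alone. Each library was counted as 1 sample, but this value does not show that libraries came from separate mice.

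Values per library were given for all G1, CDK inhibitor, RB and E2F members. Of the mitosis and of the replication members they were given for the 3 highest, the 3 lowest and the 3 with the smallest p, and in the other lists the 2 highest genes were named. Top2a, the genes above Mki67, the mitosis genes high in P2ry14-null library 2, Btg1 and Mxd1 were named after their values were seen. Members and lists were chosen with earlier results of these data known.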

Additional observations from a re-analysis of the deposited data

Results flagged for a closer look

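In 92 groups of 5 libraries (36 genes and 10 sums or ratios, by genotype), 4 held a library separated from the others by more than Dixon's 95% limit of 0.71 of the range, where chance gives about 1 in 20 groups. Bub1 in P2ry14-null library 2 had 0.162 CPM against 0.0445 to 0.0641 CPM in the other 4. Tyms in the same library had 1.41 CPM against 1.14 to 1.2 CPM. Ccnd1 there had 2.57 CPM against 1.91 to 2.0 CPM. In WT library 1 the ratio of summed CDK inhibitors to summed mitosis genes was 33.6 against 25.2 to 27.5 in the other WT libraries.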

How the results depend on the processing

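Members called stayed at 0 under all 16 alternatives to the edgeR fit, and so did the other cell cycle genes called. The count over all genes was 6 with edgeR, 16 with DESeq2, and from 3 to 5 with 1 library left out (3 without P2ry14-null library 1, 2, 3 or 5 or WT library 4). With the replicate block it was 6, with 0 members called. Deviations of libraries with the same number correlated between -0.093 and 0.094, and 1 of 5 was closest to its own number, so the numbers were not taken as pairs. Without scaling beyond the total count, 7 members changed sign, none by more than 0.039, while the median of all genes moved to 0.034. Without WT library 3, 5 of 35 members (Ccnb1, Pcna, Cdkn1a, Rb1 and Rbl2) had an unadjusted p under 0.05, as had 8.77% of all tested genes, and the smallest adjusted p of a member by edgeR was 0.441 (0.848 or more in the other alternatives). The ratio of summed CDK inhibitors to summed mitosis and replication genes (6.1 in WT, 6.06 in P2ry14-null) was 6.63 in WT with longest transcript lengths, 5.02 and 4.99 from CPM without division by length, 27.9 and 27.6 over mitosis genes alone, 7.83 and 7.77 over replication genes alone, and 2.35 and 2.5 without Cdkn1a. As a ratio of medians it was 111 and 129. All stayed above 1 in each library. Depth limits the 7 mitosis genes below 0.1 RPKM, which rest on as few as 1 read in a library. Longest transcript lengths for pairs and counts of genes were tried after seeing the data.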
